A study of Mus musculus with 10 samples.

Results

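Receptor genes of the interleukin and tumour necrosis factor (TNF) receptor families were followed in splenic type 2 conventional dendritic cells (cDC2, the antigen-presenting subset that primes CD4+ helper T cells). Members were all measured gene symbols that start with Tnfrsf, or with Il, a number and then r, leaving out the antagonist gene Il1rn. This gave 55 of 19938 genes, 35 of them interleukin receptor genes and 20 TNF receptor superfamily genes, each read by the brightest of its probe sets. The rule used names alone and no measured value.

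The cells were sorted from digested spleens enriched for CD11c+ cells, and 10 one-colour arrays measured their RNA. WT untreated mice gave 2 arrays and WT mice killed 24 hours after an intraperitoneal dose of 200000000 sheep erythrocytes (sheep red blood cells, SRBC, which raise germinal centre responses) gave 3. Mice of genotype CD11c-Cre+ Notch2f/f, called Notch2-11cKO by the labels, gave 2 untreated and 3 SRBC arrays. In these mice Cre is driven from the CD11c promoter, which is active in dendritic cells and in some macrophages and other leukocytes, and acts on floxed Notch2. The labels do not give the Cre and floxed alleles of the WT mice, their age or sex, or whether each array came from 1 mouse or a pool. The p-values measure the spread between these samples, which may be technical in part.

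Cytokine receptors of the interleukin class signal mostly as pairs of a chain that binds the cytokine and a chain shared with other receptors, through JAK kinases and STAT factors. Receptors of the IL-1 and IL-17 families signal through their own adaptor proteins to NF-kB. TNF receptor family members either carry a death domain or recruit TRAF proteins to NF-kB, and a few are decoys that bind ligand without signalling. Dendritic cells use such receptors to read cytokines from lymphocytes and stroma, and can also display some of them to neighbouring cells.

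Levels are log2 intensities, and differences are given on the log2 scale ± the standard error of 1 limma fit over all arrays and all 19938 genes. A gene passed at a Benjamini-Hochberg adjusted p below 0.05 over all genes, and all p-values of genes are limma's adjusted p unless called unadjusted. Array medians lay between 29.5 and 31.7 in linear intensity; precision is limited by how few arrays each group had. No detection p was used. Of the 55 members 28 had a mean level above the median gene; all 55 were tested. Pearson r over all probe sets was 0.992 between the WT untreated arrays and 0.991 between the Notch2-11cKO untreated arrays. WT SRBC 1 stood apart from the other WT SRBC arrays (r 0.976 with each, against 0.992 between those), and Notch2-11cKO SRBC 3 from its group (0.982 and 0.98, against 0.989). Notch2 itself did not differ past the threshold between genotypes (0.14 ± 0.26 untreated and 0.35 ± 0.21 after SRBC); its single probe set may lie outside the deleted part, so it checks nothing. The Notch targets Hes1 and Dtx1 were lower in untreated Notch2-11cKO (-2.60 ± 0.26 and -2.41 ± 0.33), and both fell with SRBC in WT (-2.09 ± 0.23 and -1.43 ± 0.30). After SRBC Dtx1 was lower in Notch2-11cKO (-1.08 ± 0.27), and Hes1 did not pass (-0.09 ± 0.21, adjusted p = 0.892). Hes1 was 1 of the 4 genes past the threshold in the test of whether the response differed between genotypes (2.51 ± 0.33, adjusted p = 0.0486). Of the 11 genes on the cDC2 list, 3 had log2 levels of 9.02 to 10.51 for Itgax (CD11c), 9.51 to 10.66 for Sirpa and 11.9 to 12.44 for H2-Ab1 over all arrays. Others of the list moved: 3 of 11 fell with SRBC in WT, Cd209a (-1.83 ± 0.21), Cd4 (-1.32 ± 0.20) and Itgam (-1.44 ± 0.19). The median difference of the list was -0.65, and its summed intensity was 9844 to 10170 untreated and 7676 to 8374 after SRBC. In Notch2-11cKO 1 of 11 fell, Cd209a (-1.49 ± 0.21), with sums of 10460 to 10763 and 7217 to 8829. Such sums follow the brightest genes, here H2-Ab1. The mean log2 level of the list was 8.7 to 8.72 in WT untreated and 7.98 to 8.08 in WT SRBC. In Notch2-11cKO it was lower untreated (8.05 to 8.17), although the sum was higher, and 7.7 to 7.97 after SRBC. Between genotypes 1 of the 11 genes was higher and 3 lower without SRBC, and 2 were higher and 2 lower after it. Cd209a was higher in Notch2-11cKO both times (1.73 ± 0.23 and 2.07 ± 0.19). Esam and Clec4a4, markers of the Notch2-dependent cDC2 subset, were lower in Notch2-11cKO without SRBC (-1.84 ± 0.33 and -4.09 ± 0.35) and with it (-1.15 ± 0.27 and -2.91 ± 0.29).

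Of the 55 members 18 passed in at least 1 comparison, 13 interleukin and 5 TNF receptor genes. The share of all genes that passed in at least 1 comparison was not counted, so the 18 are a description only. Shares of all genes are given with each comparison below. The other 37 passed in none, and 29 of these differed by less than 0.5 in each of the 4 comparisons between groups. Of the 18, only Il18r1, Il1rap, Il23r and Il31ra had a mean level below that of the median gene.

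**Figure D1:**
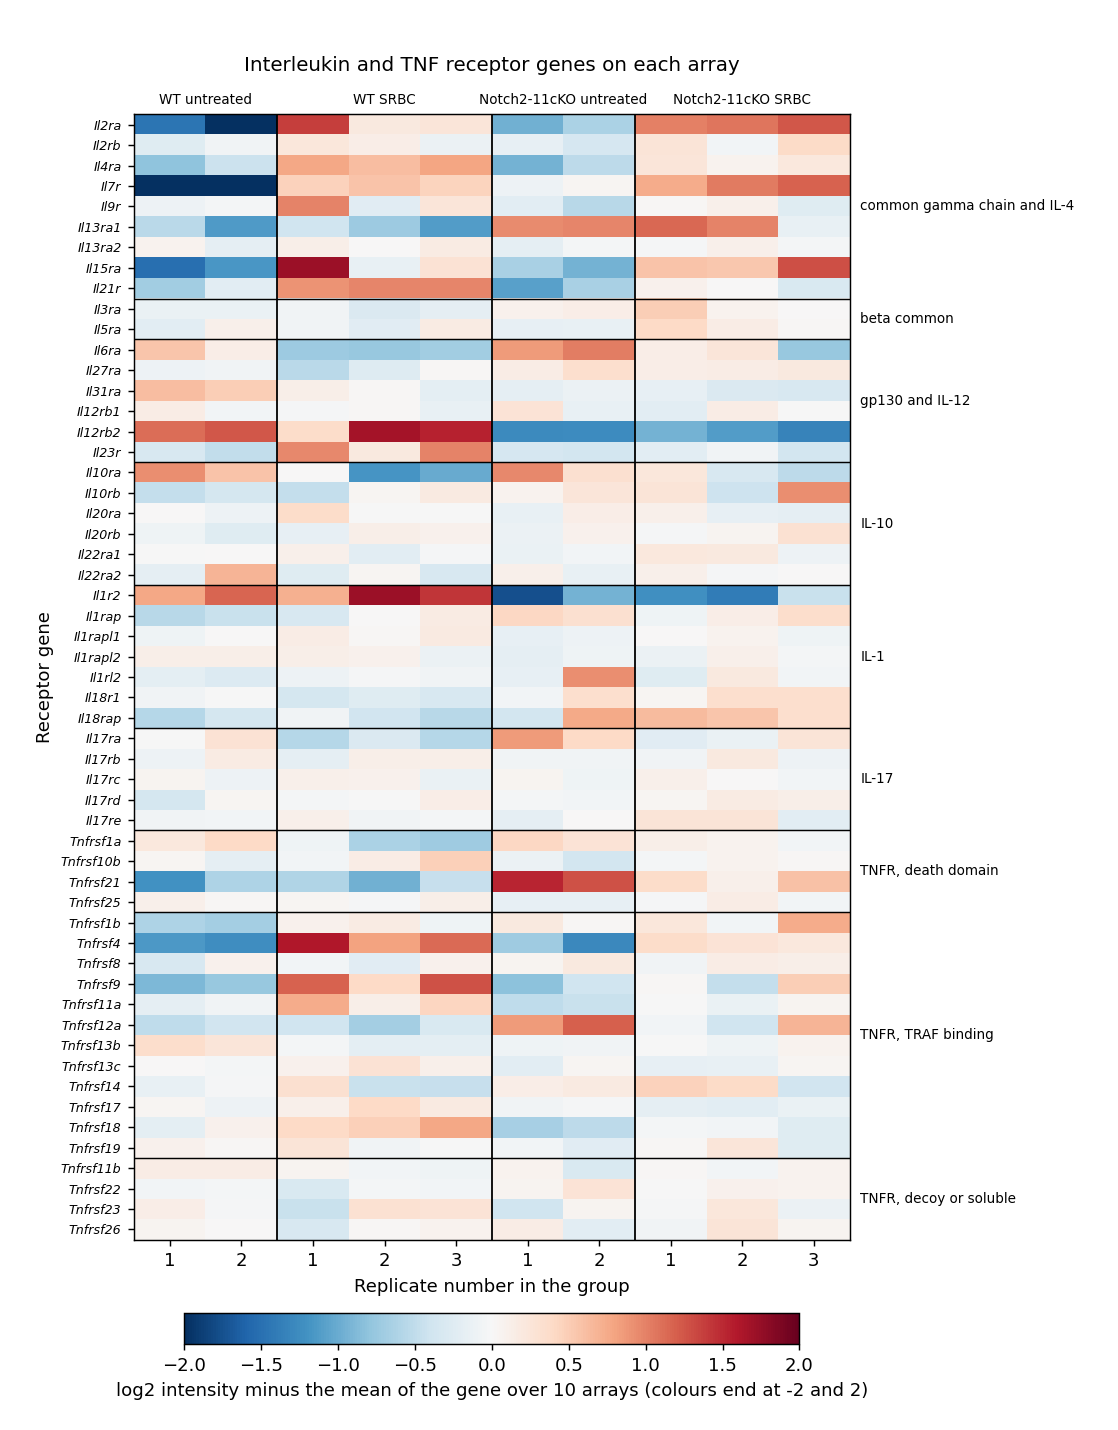
Each row is 1 of the 55 receptor genes, grouped by receptor family, and each column 1 array; colour gives the log2 intensity minus the mean of that gene over the 10 arrays. Il7r and Il2ra are lowest in the WT untreated arrays, Il12rb2 and Il1r2 are lower in all 5 Notch2-11cKO arrays than in any WT array, and the beta common and decoy or soluble receptor rows stay pale.

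The sequences before the gene starts are shown for 5 members chosen, after their values were seen, for the changes described next: Il7r, Il2ra and Tnfrsf4 from the SRBC response, and Il12rb2 and Tnfrsf21 from the genotype difference. They are RefSeq sequences of build GRCm38.p6, written 5′ to 3′ along the gene's strand and ending at the last base before the gene. Capitals mark matches to the 4 motifs searched on both strands: TGGGAA (the core bound by RBPJ, the DNA-binding partner of Notch), TTCNNNGAA (the STAT inverted repeat), the NF-kB half-site pair and GAGGAA (the core bound by PU.1).

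Il7r, chr15:9529942-9530126, minus strand: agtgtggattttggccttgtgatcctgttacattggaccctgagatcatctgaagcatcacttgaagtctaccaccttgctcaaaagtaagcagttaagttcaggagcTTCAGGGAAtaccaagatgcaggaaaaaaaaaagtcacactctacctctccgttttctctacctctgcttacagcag
Il2ra, chr2:11642542-11642791, plus strand: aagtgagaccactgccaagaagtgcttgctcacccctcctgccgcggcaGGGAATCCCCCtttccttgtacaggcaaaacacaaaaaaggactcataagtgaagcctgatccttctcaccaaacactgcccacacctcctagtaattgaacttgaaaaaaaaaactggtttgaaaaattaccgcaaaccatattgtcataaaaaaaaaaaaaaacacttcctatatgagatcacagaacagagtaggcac
Tnfrsf4, chr4:156013445-156013594, plus strand: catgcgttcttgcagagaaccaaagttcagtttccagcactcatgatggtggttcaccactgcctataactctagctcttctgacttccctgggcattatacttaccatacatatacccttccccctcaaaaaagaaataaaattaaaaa
Il12rb2, chr6:67376294-67376438, minus strand: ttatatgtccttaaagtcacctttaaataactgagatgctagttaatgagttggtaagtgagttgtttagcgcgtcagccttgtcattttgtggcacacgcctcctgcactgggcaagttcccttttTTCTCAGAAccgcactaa
Tnfrsf21, chr17:43016305-43016554, plus strand: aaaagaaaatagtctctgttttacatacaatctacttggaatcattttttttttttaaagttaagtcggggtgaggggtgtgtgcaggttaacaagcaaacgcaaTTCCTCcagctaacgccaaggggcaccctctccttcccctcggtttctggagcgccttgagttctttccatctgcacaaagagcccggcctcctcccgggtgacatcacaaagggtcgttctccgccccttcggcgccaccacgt

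The Il7r stretch holds the STAT letters TTCAGGGAA, the Il12rb2 stretch holds TTCTCAGAA, and the Il2ra stretch holds GGGAATCCCC together with an overlapping match on the other strand, GGAATCCCCC. The Tnfrsf21 stretch holds the PU.1 core on the minus strand, and the Tnfrsf4 stretch matches none of the 4. RefSeq windows of 250 bases before to 50 after the start were held for 44 of the 55 members. Each member was read by 1 window, at its outermost start. The 32851 windows of all genes were not reduced in this way and can hold several for 1 gene, so the shares are not of like units. TTCNNNGAA was in 8 of these 44 members (18.2%) and in 8.3% of all 32851 windows. TGGGAA was in 8 of 44 (18.2%, against 25.6% of all), the NF-kB half-site pair in 25 (56.8%, against 50.8%) and GAGGAA in 15 (34.1%, against 28.3%). Of the 8 members that rose after SRBC in WT, 1 window held TTCNNNGAA, 1 TGGGAA, 4 the NF-kB half-site pair and 2 GAGGAA. A match of letters describes the sequence and is not evidence of binding.

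In WT cDC2 after SRBC, Il7r, Il2ra, Il15ra, Il4ra, Il21r, Il23r, Tnfrsf4 and Tnfrsf9 rose, and Il10ra and Il31ra fell. That is 10 of 55 members (18.2%), against 3.79% of all genes. By direction 8 members were higher, against 1.82% of all genes, and 2 lower, against 1.97%. The median difference over the 55 members was 0.09 and over all genes 0.02, and 45 members did not pass. Treated and untreated arrays did not overlap for 16 members in the higher direction (17.8% of all genes) and 9 in the lower (15.7% of all genes).

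Of 9 receptor genes of the common gamma chain and IL-4 group 5 rose and none fell, and their median difference was 1.34. Il7r encodes the chain that binds IL-7 and, with another partner, the stromal cytokine TSLP. Its log2 level was 6.45 and 6.32 on the WT untreated arrays and 9.02, 9.14 and 9.01 after SRBC. All 3 treated arrays lay far above both untreated ones, and replicates were close in each group. The difference was 2.67 ± 0.18, or 6.36-fold (adjusted p = 7.29e-05). Il2ra encodes CD25, the chain that gives the IL-2 receptor its high affinity. It read 4.63 and 4.0 untreated and 7.48, 6.29 and 6.33 after SRBC, with WT SRBC 1 the highest. It rose by 2.38 ± 0.33, or 5.21-fold (adjusted p = 0.00297). Il2rb, which encodes the beta chain of that receptor, differed by 0.24 ± 0.16 and did not pass (adjusted p = 0.498).

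Il4ra and Il21r encode the ligand-binding chains for IL-4 (and IL-13) and for the follicular helper cytokine IL-21. Il4ra read 7.55 and 7.92 untreated and 9.13, 8.97 and 9.14 after SRBC, a rise of 1.34 ± 0.20 (adjusted p = 0.00365). Il21r read 7.64 and 8.12 untreated and 9.24, 9.31 and 9.31 after SRBC, a rise of 1.40 ± 0.22 (adjusted p = 0.00508). For both genes the treated arrays were close together and above the untreated ones. Il15ra, the chain that holds IL-15 on the cell surface for presentation to lymphocytes, averaged 5.88 ± 0.25 (SD, n = 2) untreated and 7.85 ± 0.97 (SD, n = 3) after SRBC. It rose by 1.96 ± 0.45 (adjusted p = 0.0351), and the treated arrays had the widest spread of these 5 genes. Of the rest of this group, Il13ra1 differed by 0.09 ± 0.36 (adjusted p = 0.943).

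Among receptors of the gp130 and IL-12 group, Il23r, which joins Il12rb1 to form the IL-23 receptor, rose from 3.19 and 3.01 to 4.47, 3.70 and 4.50 (1.12 ± 0.21, adjusted p = 0.0132). Il31ra, the binding chain for IL-31, fell from 4.42 and 4.29 to 3.92, 3.83 and 3.61 (-0.57 ± 0.12, adjusted p = 0.0241). Both were dimmer than the median gene, and in each the treated and untreated arrays did not overlap. Il12rb1 (-0.10 ± 0.17) and Il12rb2 (0.00 ± 0.33, 95% interval -0.71 to 0.72) did not pass. Il6ra, the binding chain for IL-6, had a difference of -1.07 ± 0.28 that missed the threshold (adjusted p = 0.0591). Il10ra, the ligand-binding chain of the IL-10 receptor, fell from 9.21 ± 0.25 (SD, n = 2) to 7.75 ± 0.65 (SD, n = 3), a difference of -1.47 ± 0.36 (adjusted p = 0.0465). Its partner chain Il10rb differed by 0.33 ± 0.33 (adjusted p = 0.689). None of 7 IL-1 family, 5 IL-17 family and 2 beta common family receptors passed.

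Of the 20 TNF receptor genes 2 rose and none fell, and both belong to the costimulatory receptors that recruit TRAF proteins. Tnfrsf4 encodes OX40. It read 5.44 and 5.34 untreated and 8.19, 7.40 and 7.72 after SRBC, and the groups were far apart. It rose by 2.38 ± 0.24, or 5.20-fold (adjusted p = 0.0006). Tnfrsf9, encoding 4-1BB, read 5.12 and 5.26 untreated and 7.19, 6.41 and 7.29 after SRBC (1.78 ± 0.31, adjusted p = 0.00953). Its neighbours in function had smaller differences that did not pass: Tnfrsf18 (GITR) at 0.60 ± 0.17 (adjusted p = 0.088), Tnfrsf11a (RANK) at 0.55 ± 0.19 (adjusted p = 0.15) and Tnfrsf1b (TNFR2) at 0.70 ± 0.23 (adjusted p = 0.122). Tnfrsf1a (TNFR1), which has a death domain, differed by -0.78 ± 0.21 (adjusted p = 0.0684).

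**Figure D2:**
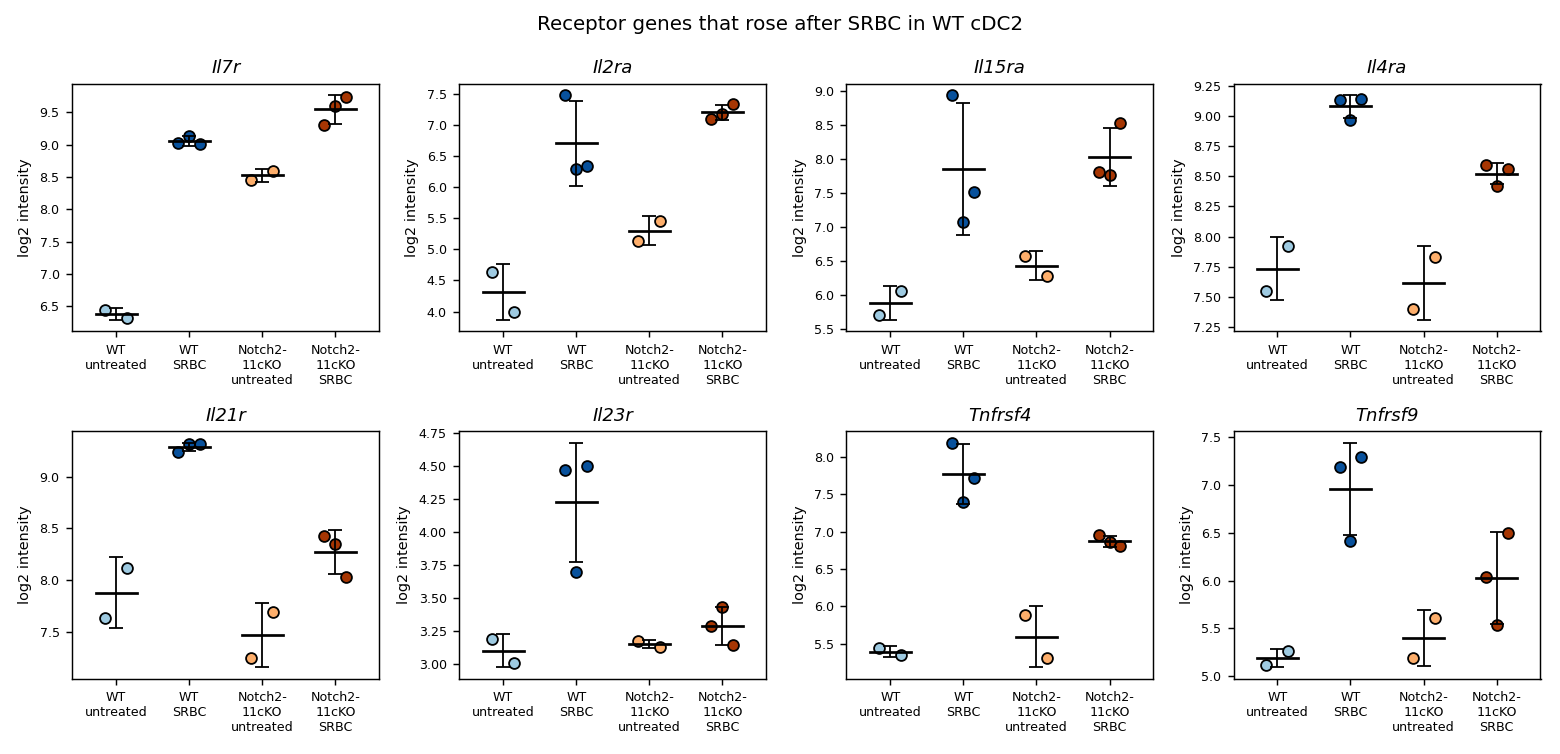
Log2 intensity of the 8 receptor genes that rose after SRBC in WT cDC2, by group; points are arrays, horizontal bars means and error bars SDs (n = 2 untreated and 3 SRBC in each genotype), and each panel has its own vertical scale. WT SRBC arrays lie above WT untreated arrays in every panel, and Il7r starts at 8.46 and 8.6 in untreated Notch2-11cKO.

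Ligands and signalling genes of the same pathways were counted from lists chosen with earlier results of these data known. Of 50 ligand genes 3 rose and 2 fell, among them Il12b (3.80 ± 0.52), which encodes the subunit shared by IL-12 and IL-23, Il6 (3.24 ± 0.46) and Tnfsf4 (2.94 ± 0.46), which encodes the ligand of OX40. Of 21 JAK-STAT genes 4 rose and 3 fell. Socs2 (4.06 ± 0.41), a feedback inhibitor of cytokine receptors, Stat4 (2.77 ± 0.52) and Ptpn2 (1.05 ± 0.17), a phosphatase of JAK kinases, rose, and the phosphatase gene Ptpn6 (-1.07 ± 0.21) fell. Of 32 IL-1 and TNF signalling genes 3 rose, the adaptor Traf1 (0.79 ± 0.17), the kinase Map3k14 (1.38 ± 0.30), known as NIK, and the death inhibitor Cflar (1.66 ± 0.39). Among 21 receptors of these families whose names fall outside the rule, Fas (2.75 ± 0.50) and Csf2rb2 (1.32 ± 0.27) rose and Relt (-1.12 ± 0.24) fell.

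Several of these receptors are best known from lymphocytes, so the marker lists of other cells were read beside them. None of 10 T cell, 9 B cell or 10 natural killer cell markers passed in this comparison. The summed intensity of the T cell list was 319 to 372 in WT untreated and 297 to 342 in WT SRBC, and Cd3e stayed between 5.0 and 5.46 in log2 on all 10 arrays. The natural killer cell list summed to 137 to 139 untreated and 163 to 197 after SRBC, and the list for innate lymphoid cells to 207 to 217 and 309 to 351, with 1 of 7 markers, Rora, higher. Of 12 macrophage markers 3 rose (summed intensity 797 to 868 untreated, 1461 to 2005 after SRBC). Of 20 immediate-early and heat shock genes known to respond to tissue digestion, a list added after the results were seen, 9 fell, with a list mean of 10.48 to 10.63 untreated and 8.71 to 9.25 after SRBC. Of 9 neutrophil markers 1 rose (176 to 195 and 333 to 466), and of 10 markers of type 1 conventional dendritic cells 2 rose and 1 fell (1819 to 1968 and 1349 to 1433). The mean log2 level of this last list moved the other way from its sum, from 5.65 to 5.99 untreated to 6.08 to 6.18 after SRBC. The part of these shifts in the receptor changes was not tested. In bulk RNA, fewer cells of a type and less RNA per cell cannot be told apart.

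With only the 2 groups compared in the fit, Il10ra, Il15ra, Il23r and Il31ra did not pass (adjusted p = 0.0762, 0.0846, 0.0534 and 0.0791), and with quantile normalization Il10ra did not (0.0634). Only Il7r and Tnfrsf4 kept an adjusted p below 0.05 with any array left out. Fewer members passed without WT untreated 1 or without WT untreated 2, and fewer of all genes passed in those fits as well. Each of these fits left 1 array in the WT untreated group. Without WT untreated 1, adjusted p was 0.11 for Il21r and 0.0943 for Il4ra, and without WT untreated 2 it was 0.0513 for Il2ra. Without WT untreated 1 or 2 it was 0.104 and 0.14 for Il23r and 0.128 and 0.0769 for Tnfrsf9. Il31ra was lost without WT untreated 1 or 2 (0.236 and 0.104) and without WT SRBC 2 or 3 (0.0557 and 0.0725). Il15ra was lost without WT untreated 1 or 2 (0.288 and 0.154), WT SRBC 3 (0.0639), Notch2-11cKO untreated 1 or 2 (0.0577 and 0.0576) and Notch2-11cKO SRBC 1 (0.0528). Il10ra was lost without WT untreated 1 or 2 (0.347 and 0.171), WT SRBC 2 or 3 (0.133 and 0.138), Notch2-11cKO untreated 1 or 2 (0.0614 for both) and Notch2-11cKO SRBC 1 or 2 (0.0528 and 0.0646).

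The same treatment in Notch2-11cKO cDC2 moved 1 of 55 members past the threshold (1.8%), against 0.306% of all genes. The arrays did not overlap for 14 members in the higher direction (16.1% of all genes) and 7 in the lower (12.2% of all genes). The member past the threshold was Il2ra, which read 5.13 and 5.46 untreated and 7.10, 7.17 and 7.33 after SRBC. The treated arrays were tight and well above the untreated ones, and the rise was 1.91 ± 0.33, or 3.75-fold (adjusted p = 0.0416). Il7r began higher in this genotype, at 8.46 and 8.6, and read 9.30, 9.60 and 9.74 after SRBC, with no overlap. Its difference of 1.02 ± 0.18 missed the threshold (adjusted p = 0.05005). Tnfrsf4 read 5.88 and 5.30 untreated and 6.95, 6.86 and 6.80 after SRBC (1.28 ± 0.24, adjusted p = 0.0599). Here too the arrays did not overlap, although the treated level was below that of the WT treated arrays.

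Il15ra (1.60 ± 0.45, adjusted p = 0.197), Il4ra (0.91 ± 0.20, 0.0942), Il21r (0.80 ± 0.22, 0.183) and Tnfrsf9 (0.62 ± 0.31, 0.544) had positive differences that did not pass. Il23r stayed between 3.13 and 3.43 on all 5 arrays (0.14 ± 0.21, adjusted p = 0.887). Tnfrsf21, the death receptor DR6, was at 8.06 and 7.81 untreated and 6.90, 6.63 and 7.12 after SRBC, and its difference of -1.06 ± 0.23 did not pass (adjusted p = 0.0983). Il6ra had almost the same difference as in WT (-1.07 ± 0.28, adjusted p = 0.163). Of the 21 JAK-STAT genes Socs2 (2.45 ± 0.41) and Ptpn2 (1.01 ± 0.17) rose, and no gene of the ligand, partner receptor or IL-1 and TNF signalling lists passed. Of the 20 digestion-associated genes 4 fell. Of 9 neutrophil markers 1 rose (summed intensity 224 to 442 untreated and 463 to 1115 after SRBC). No marker of T cells, B cells, natural killer cells, innate lymphoid cells, macrophages or monocytes passed. No marker of plasmacytoid or type 1 conventional dendritic cells passed either. The part of these shifts in the receptor changes was not tested.

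The call of Il2ra was lost with quantile normalization (adjusted p = 0.0529) and without any 1 of 8 arrays: WT untreated 1 or 2 (adjusted p = 0.069 and 0.0692), WT SRBC 3 (0.0603), Notch2-11cKO untreated 1 or 2 (0.392 and 0.188) and Notch2-11cKO SRBC 1, 2 or 3 (0.0842, 0.107 and 0.0829). Without WT SRBC 1, which enters only through the shared spread, 4 members passed: Il2ra, Il7r (0.0299), Il15ra (0.0218) and Tnfrsf4 (0.018).

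Whether the response depended on genotype was asked of each member by the interaction, the Notch2-11cKO response minus the WT response. None of 55 members passed in the limma fit, against 0.0201% of all genes. An unadjusted limma p below 0.05 was seen for 10 members, 8 of them with a negative difference. The share of all genes at that cutoff was not counted, so these counts are a description only. No other tool was run. The most negative was Il7r at -1.65 ± 0.26 (95% interval -2.22 to -1.08, unadjusted p = 4.75e-05, adjusted p = 0.135). Tnfrsf21 followed at -1.29 ± 0.33 (adjusted p = 0.355), then Tnfrsf9 at -1.15 ± 0.43 (0.66), Tnfrsf4 at -1.10 ± 0.34 (0.54) and Il23r at -0.98 ± 0.29 (0.493). For Il15ra (-0.37, 95% interval -1.75 to 1.02) and Il4ra (-0.43, -1.04 to 0.18) the interval spans 0 and is too wide to call the responses alike. Il7r passed without WT SRBC 1 (-1.67, adjusted p = 0.0396).

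The 8 receptors that rose in WT each had a positive but smaller difference in Notch2-11cKO. They were chosen for their WT difference, so this count is a description. Across the 55 members the 2 responses, which share no array, had Pearson r 0.81 and Spearman rho 0.65, and across all 19938 genes r 0.56 and rho 0.41. These are correlations across genes, which are not independent replicates.

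**Figure D3:**
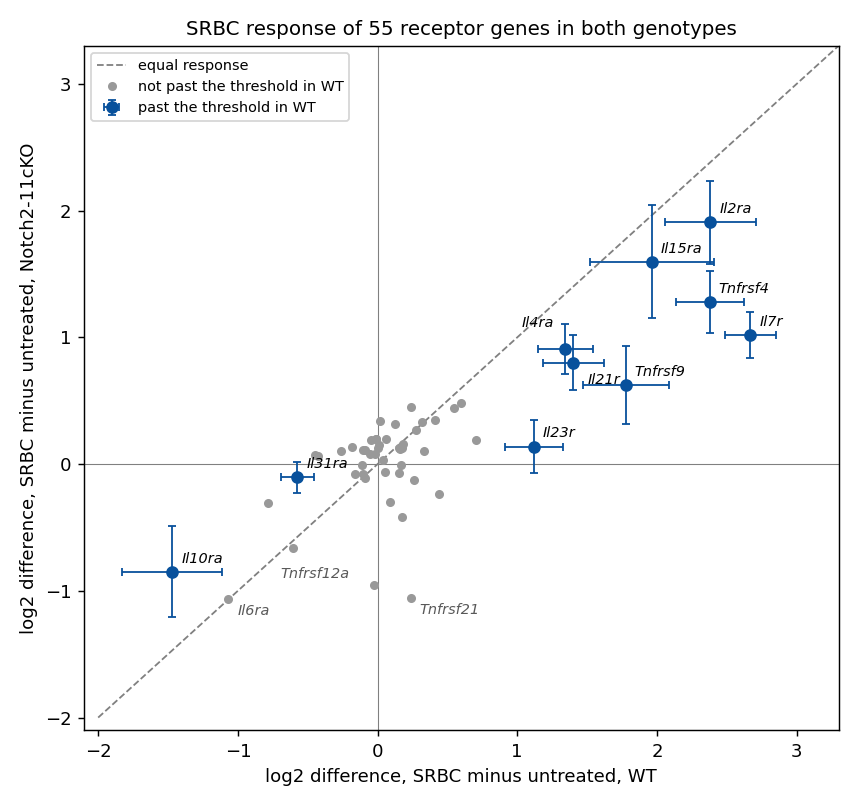
Log2 difference between SRBC and untreated cDC2 for each of the 55 receptor genes, in WT (horizontal) and Notch2-11cKO (vertical), with standard errors for the 10 genes past the threshold in WT; the dashed line marks equal responses. All 8 WT risers lie below the line and above 0, with Il7r farthest from the line, and Tnfrsf21 and Tnfrsf12a have differences near -1 in Notch2-11cKO and near 0 in WT.

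Untreated cDC2 of the genotypes differed in 8 of 55 members (14.5%), against 5.11% of all genes. In Notch2-11cKO Tnfrsf21, Il7r, Il13ra1, Tnfrsf12a and Il1rap were higher, and Il12rb2, Il1r2 and Il31ra lower. By direction 5 members were higher, against 2.95% of all genes, and 3 lower, against 2.16%. The arrays did not overlap for 16 members in the higher direction (22% of all genes) and 13 in the lower (26.8% of all genes). This comparison shares its WT arrays with the WT response above.

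The lower receptors belonged to the gp130 and IL-12 group and to the IL-1 family. Il12rb2 encodes the chain that gives the IL-12 receptor its STAT4 signal. It read 8.47 and 8.59 in WT and 6.08 and 6.09 in Notch2-11cKO, a difference of -2.45 ± 0.36, or 5.45-fold (adjusted p = 0.00188). Its partner Il12rb1 did not pass (0.01 ± 0.18, adjusted p = 0.991). Il1r2 encodes the decoy receptor that binds IL-1 without signalling, and read 10.68 and 11.06 in WT and 8.14 and 8.95 in Notch2-11cKO. The groups did not overlap, with a difference of -2.33 ± 0.39, or 5.02-fold (adjusted p = 0.00442). Il31ra was at 4.42 and 4.29 in WT and 3.62 and 3.69 in Notch2-11cKO (-0.70 ± 0.13, adjusted p = 0.009).

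Of the higher receptors, Tnfrsf21 changed most. It read 5.33 and 5.92 in WT and 8.06 and 7.81 in Notch2-11cKO (2.32 ± 0.26, or 4.97-fold, adjusted p = 0.000294). Il7r was at 6.45 and 6.32 in WT and 8.46 and 8.6 in Notch2-11cKO (2.14 ± 0.20, or 4.42-fold, adjusted p = 0.000103). Both untreated Notch2-11cKO arrays lay between the WT untreated arrays and the WT SRBC arrays, which read 9.01 to 9.14. Il13ra1, the IL-13 binding chain that pairs with Il4ra, read 7.10 and 6.50 in WT and 8.58 and 8.61 in Notch2-11cKO (1.80 ± 0.40, adjusted p = 0.0228). Tnfrsf12a, the TWEAK receptor Fn14, read 6.73 and 6.86 against 8.09 and 8.44 (1.47 ± 0.31, adjusted p = 0.0173). Il1rap, the accessory chain that IL-1 and IL-33 receptors share, read 4.17 and 4.28 against 5.13 and 5.04 (0.85 ± 0.19, adjusted p = 0.0211). In all 5 genes both Notch2-11cKO arrays lay above both WT arrays.

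**Figure D4:**
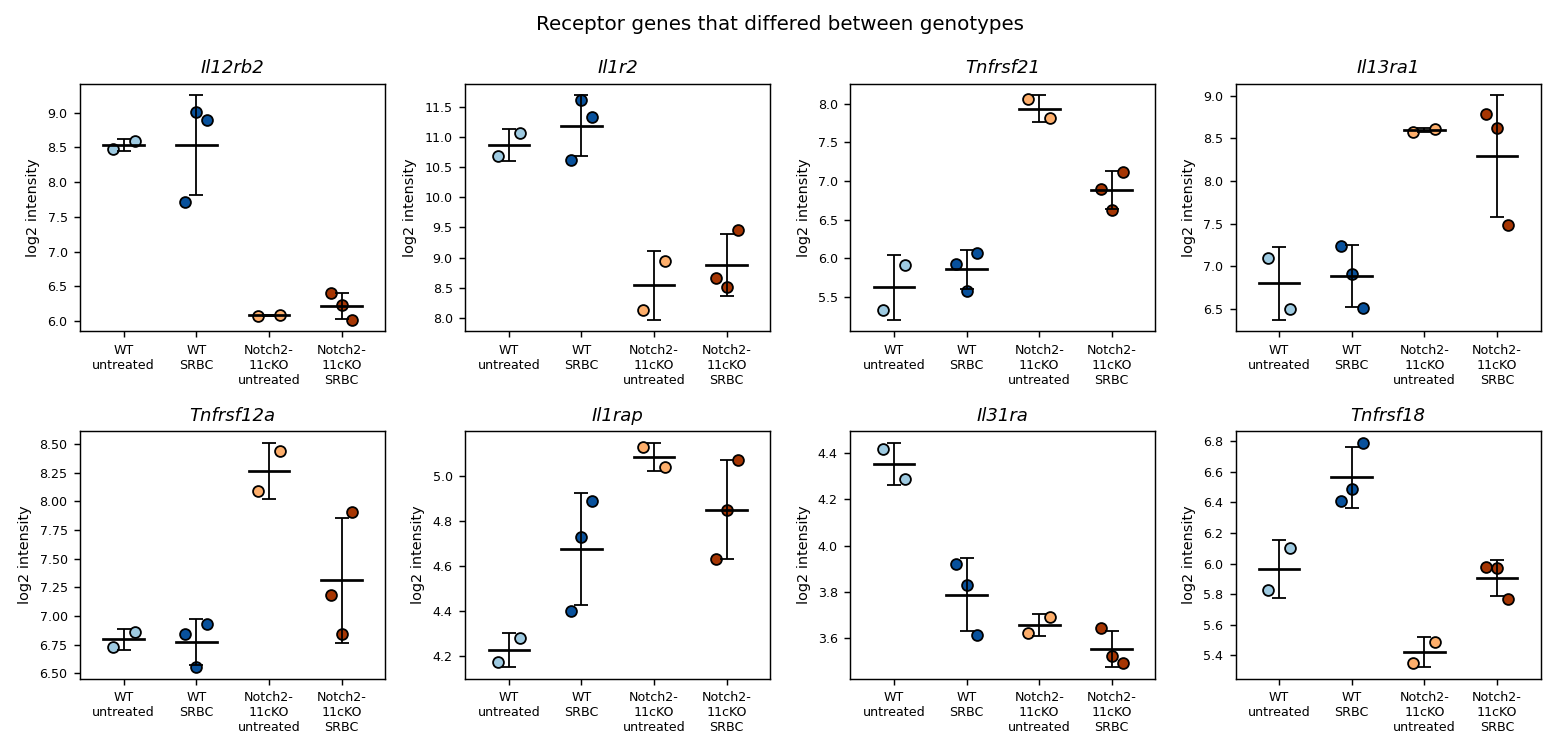
Log2 intensity of 8 receptor genes that differed between genotypes, by group; points are arrays, horizontal bars means and error bars SDs (n = 2 untreated and 3 SRBC in each genotype), and each panel has its own vertical scale. Il12rb2 and Il1r2 are lower in Notch2-11cKO with and without SRBC, whereas Tnfrsf21 is higher in both and lies nearer to WT after SRBC.

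Of 50 ligand genes 3 were higher and 2 lower in untreated Notch2-11cKO, among them Il6 (2.9 ± 0.5), Tnfsf9, the 4-1BB ligand (1.86 ± 0.29), Tnfsf8 (-2.14 ± 0.26) and Osm (1.21 ± 0.28). Of 21 partner receptors 2 were higher and none lower. The largest difference of that list was 2.31, for Fas, which averaged 4.75 in WT and 7.06 in Notch2-11cKO. Socs3, an inhibitor of gp130 signalling, was the 1 of 21 JAK-STAT genes past the threshold (2.00 ± 0.24). Of 32 IL-1 and TNF signalling genes 3 were higher, the NF-kB inhibitors Nfkbia (1.75 ± 0.21) and Nfkbib (0.90 ± 0.22) and the IL-1 pathway inhibitor Irak3 (1.53 ± 0.28). Markers of other cells moved with genotype: 5 of 8 monocyte markers were higher (summed intensity 1761 to 2121 in WT and 9700 to 11137 in Notch2-11cKO), as were 7 of 12 macrophage markers (797 to 868 and 2410 to 3076). Of 10 markers of type 1 conventional dendritic cells 4 were higher, among them Clec9a (3.00 ± 0.50), and 1, Wdfy4, was lower (-2.01 ± 0.22). The mean log2 level of this list was 5.65 to 5.99 in WT and 6.55 to 6.63 in Notch2-11cKO. Its summed intensity, in which the brightest genes weigh most, was 1819 to 1968 in WT and 1750 to 1815 in Notch2-11cKO. Of 7 plasmacytoid dendritic cell markers 2 were higher (448 to 535 and 846 to 998), and of 9 neutrophil markers 1 was (176 to 195 and 224 to 442). Of 9 B cell markers 1, Ms4a1, was lower (-1.39 ± 0.28; 233 to 272 and 251 to 311). Of 10 T cell markers 1, Cd5, was lower, and the T cell list summed to 319 to 372 in WT and 241 to 245 in Notch2-11cKO. Their part in the receptor differences was not tested.

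Il7r, Il12rb2 and Tnfrsf21 kept an adjusted p below 0.05 with any array left out. Fewer members passed when any untreated array was left out, which leaves 1 array in its group. This is not set against the share of all genes in the same fits. Il1r2 was lost without WT untreated 2 (0.0593) or Notch2-11cKO untreated 1 (0.0625). Il31ra was lost without WT untreated 1 (0.0973) or Notch2-11cKO untreated 1 or 2 (0.0844 and 0.0502). Without WT untreated 1 or 2 and Notch2-11cKO untreated 1 or 2, in that order, adjusted p was 0.067, 0.209, 0.132 and 0.125 for Il13ra1, 0.165, 0.102, 0.152 and 0.0926 for Il1rap, and 0.139, 0.0965, 0.0638 and 0.143 for Tnfrsf12a.

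After SRBC 9 of 55 members differed between genotypes (16.4%), against 5.32% of all genes. Higher in Notch2-11cKO were Il13ra1, Tnfrsf21 and Il18r1 (3 members, against 3.36% of all genes). Lower were Il12rb2, Il1r2, Il21r, Il23r, Tnfrsf4 and Tnfrsf18 (6 members, against 1.96% of all genes). The arrays did not overlap for 10 members in the higher direction (9.96% of all genes) and 10 in the lower (10.4% of all genes). Here the WT SRBC arrays are shared with the WT response.

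Of the 6 lower genes, Il12rb2 and Il1r2 had also passed without treatment and the other 4 had not. Il12rb2 read 7.71, 9.01 and 8.89 in WT and 6.40, 6.23 and 6.02 in Notch2-11cKO (-2.32 ± 0.29, adjusted p = 0.000772), and WT SRBC 1 was the lowest WT array. Il1r2 read 10.62, 11.61 and 11.33 against 8.67, 8.51 and 9.46 (-2.31 ± 0.32, adjusted p = 0.00132). The change of these differences with treatment was 0.13 (95% interval -0.88 to 1.14) for Il12rb2 and 0.02 (-1.08 to 1.11) for Il1r2, and neither passed. Il21r read 9.24, 9.31 and 9.31 against 8.43, 8.35 and 8.03 (-1.02 ± 0.19, adjusted p = 0.0106). Il23r read 4.47, 3.70 and 4.50 against 3.29, 3.43 and 3.14 (-0.93 ± 0.18, adjusted p = 0.0129). For Il21r and Il23r every WT array lay above every Notch2-11cKO array, and the untreated groups had overlapped. Tnfrsf4 read 8.19, 7.40 and 7.72 against 6.95, 6.86 and 6.80 (-0.90 ± 0.22, adjusted p = 0.0338). Tnfrsf18 read 6.41, 6.49 and 6.79 against 5.98, 5.97 and 5.77 (-0.66 ± 0.16, adjusted p = 0.0318).

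Tnfrsf21 was still higher in Notch2-11cKO, at 6.90, 6.63 and 7.12 against 5.93, 5.58 and 6.07 (1.02 ± 0.21, adjusted p = 0.0156). Il13ra1 read 8.79, 8.62 and 7.48 against 7.24, 6.91 and 6.51 (1.41 ± 0.32, adjusted p = 0.0278), with Notch2-11cKO SRBC 3 closest to WT. Il18r1, the binding chain of the IL-18 receptor, was at 3.85, 4.15 and 4.14 against 3.46, 3.57 and 3.48 (0.55 ± 0.12, adjusted p = 0.0268). Its partner Il18rap had a difference of 0.84 ± 0.24 that did not pass (adjusted p = 0.072). Il7r, at 9.02, 9.14 and 9.01 in WT and 9.30, 9.60 and 9.74 in Notch2-11cKO, no longer differed past the threshold (0.49 ± 0.16, adjusted p = 0.124). Nor did Il2ra (0.50 ± 0.29, adjusted p = 0.432), Il4ra (-0.55 ± 0.18, 0.106) or Tnfrsf9 (-0.94 ± 0.28, 0.0789).

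**Figure D5:**
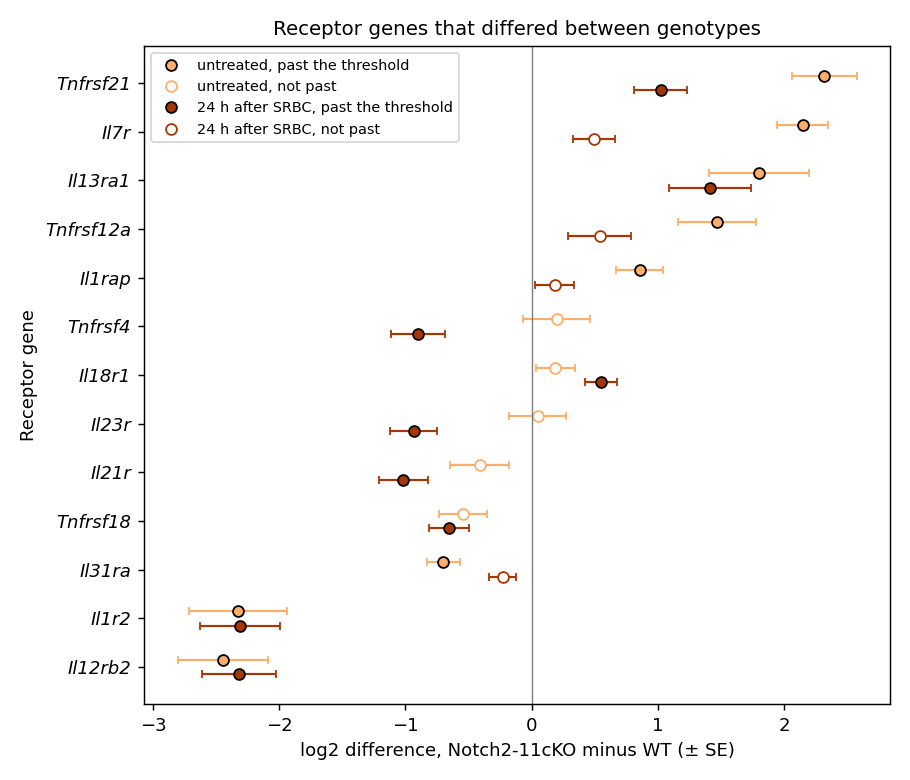
Log2 difference between Notch2-11cKO and WT cDC2, with standard errors, for the 13 receptor genes past the threshold without treatment or after SRBC; filled points passed and open points did not. Il12rb2 and Il1r2 have nearly the same difference in both conditions, Il7r and Tnfrsf21 have smaller positive differences after SRBC, and the differences of Tnfrsf4 and Il23r lie near 0 without treatment and near -0.9 after it.

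Among signalling genes after SRBC, Stat4, the factor through which IL-12 signals, was lower in Notch2-11cKO (-2.61 ± 0.46), as was Map3k14 (-1.39 ± 0.27). Socs3 (1.49 ± 0.20) and Irak3 (1.75 ± 0.23) were higher. Of 50 ligand genes 4 were higher, including Il6 (2.06 ± 0.41) and Osm (1.30 ± 0.23), and Tnfsf18, the GITR ligand, was lower (-0.90 ± 0.21). Of 21 partner receptors Lifr alone passed (1.80 ± 0.35). The monocyte list again had 5 of 8 markers higher (summed intensity 1736 to 1920 in WT and 8263 to 9098 in Notch2-11cKO) and the macrophage list 7 of 12 (1461 to 2005 and 2678 to 3344). Of 10 natural killer cell markers 2 were lower (163 to 197 in WT and 132 to 148 in Notch2-11cKO). Of 7 plasmacytoid dendritic cell markers 3 were higher (482 to 523 and 864 to 1271), and of 9 neutrophil markers 2 (333 to 466 and 463 to 1115). Of 10 markers of type 1 conventional dendritic cells 3 were higher and 1 lower (mean log2 level 6.08 to 6.18 and 6.29 to 6.52, summed intensity 1349 to 1433 and 1281 to 1539). Of 10 T cell markers Cd5 was lower (297 to 342 and 241 to 299), of 9 B cell markers Ms4a1 (225 to 271 and 210 to 241), and of 7 innate lymphoid cell markers Rora (309 to 351 and 279 to 480). Their part in the receptor differences was not tested.

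With only the 2 groups compared in the fit, Il13ra1, Tnfrsf4 and Tnfrsf18 did not pass (adjusted p = 0.0767, 0.0804 and 0.0891), and with quantile normalization Il13ra1 did not (0.0551). Without both arrays that stood apart, Tnfrsf4 and Il18r1 did not pass (0.0621 and 0.0825). Il12rb2, Il1r2 and Il21r kept an adjusted p below 0.05 with any array left out. The number of members past the threshold was 4 without WT SRBC 3 and 5 without Notch2-11cKO SRBC 1 or 2. These counts are not set against the share of all genes in the same fits, so they describe the members only. Il23r was lost without WT SRBC 3 (0.0515), and Tnfrsf21 without WT SRBC 2 (0.0674) or Notch2-11cKO SRBC 1 (0.057). Il13ra1 was lost without WT SRBC 2 or 3 (0.079 and 0.104) or Notch2-11cKO SRBC 1 or 2 (0.111 and 0.108). Il18r1 was lost without WT SRBC 1, 2 or 3 (0.0562, 0.0581 and 0.0802) or Notch2-11cKO SRBC 2 or 3 (0.0992 and 0.0695). Tnfrsf4 was lost without WT untreated 1 or 2 (0.062 and 0.0621), WT SRBC 1 or 3 (0.0627 and 0.0818) or Notch2-11cKO SRBC 1, 2 or 3 (0.0847, 0.0976 and 0.0667). Tnfrsf18 was lost without WT SRBC 2 or 3 (0.0708 and 0.112), Notch2-11cKO untreated 1 or 2 (0.0524 and 0.052) or Notch2-11cKO SRBC 1, 2 or 3 (0.0773, 0.0746 and 0.0771).

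Several members lie next to each other in the genome. In the order of RefSeq protein-coding genes, 10 pairs of members had no other gene between them. Il2ra and Il15ra on chromosome 2 and Il4ra and Il21r on chromosome 7 were the 2 pairs in which both genes rose after SRBC in WT. Tnfrsf4 and Tnfrsf18 on chromosome 4 differed by 2.38 and 0.60 in that response, and both were lower in Notch2-11cKO after SRBC. Il12rb2 and Il23r on chromosome 6 had different patterns: Il12rb2 was lower in Notch2-11cKO with and without SRBC, whereas Il23r was lower after SRBC. In the cluster on chromosome 1, Il1r2 differed by -2.33 between untreated genotypes and its measured neighbours Il1rl2 and Il18r1 by 0.62 and 0.19. Tnfrsf1b and Tnfrsf8 on chromosome 4 differed by 0.70 and 0.05 in the WT response, and Tnfrsf26, Tnfrsf22 and Tnfrsf23 on chromosome 7, receptors of the decoy group, by -0.11, -0.09 and -0.01.

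The 37 members that passed nowhere ranged from -1.07 to 0.70 in the WT response, -1.07 to 0.45 in the Notch2-11cKO response, -0.38 to 0.76 between untreated genotypes and -0.46 to 0.84 between genotypes after SRBC. The largest of these were Il6ra, Il18rap, Tnfrsf1a, Tnfrsf1b and Il17ra. Il6ra averaged 8.12 ± 0.29 (SD, n = 2) and 7.06 ± 0.03 (SD, n = 3) in WT without and with SRBC, and 8.72 ± 0.13 (SD, n = 2) and 7.65 ± 0.55 (SD, n = 3) in Notch2-11cKO. In WT its groups did not overlap, and in Notch2-11cKO they did not overlap either. Il17ra, the signalling chain shared by IL-17 receptors, differed by -0.61 ± 0.22 and -0.66 ± 0.22 in the WT and Notch2-11cKO responses (adjusted p = 0.176 and 0.31). The B cell survival receptors Tnfrsf13b (TACI), Tnfrsf13c (BAFF receptor) and Tnfrsf17 (BCMA) did not pass in any comparison. Nearest to the threshold was Tnfrsf17 between genotypes after SRBC (-0.401 ± 0.107, adjusted p = 0.05435), then Tnfrsf13b in the WT response (-0.445 ± 0.136, 0.1029). Tnfrsf14 (HVEM) did not pass either, with differences between -0.11 and 0.35. Il17rd, Il20rb and Il22ra1 had more than 1 probe set, and their WT responses lay between -0.05 and 0.18 on each of them.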

How the data were processed

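Sorted splenic cDC2 RNA was amplified with an Ambion WT Expression kit, labelled with biotin and read on 10 Affymetrix Mouse Gene 1.0 ST arrays. The deposited table gives linear intensity for 28853 probe sets, none at or below 0. Its array medians are alike, so the authors had normalized it; the method is not stated in the labels. Analysis used log2 of these values. By the platform annotation 21789 probe sets list 1 gene symbol, 1621 several and 5443 none (21698 also matched RefSeq GRCm38.p6 by gene ID). The probe set with the highest mean stood for each of 19938 genes, with no filter on dim genes. Receptor genes without a probe set of 1 symbol are not analysed here.

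One limma fit (group means, eBayes with an intensity trend; residual degrees of freedom 6, prior 5.25) gave 5 two-sided comparisons, Benjamini-Hochberg adjusted over all genes. Its code was tested on simulated data. Members, lists, motifs and the rule for naming genes were chosen with earlier results of these data known. The rule gives array values for at most 8 members past the threshold with the smallest adjusted p in a comparison, differences for a list of members fixed by name, and up to 4 genes past the threshold of each related list. Members named otherwise (Tnfrsf8, Tnfrsf17, Tnfrsf22, Tnfrsf23, Il18rap, Il1rl2, Il17rd, Il20rb, Il22ra1) were chosen after their values were seen. Alternatives changed the probe set rule, level filter, normalization, centring, trend, groups fitted, replicate block and arrays included. Software was R 4.3.3, limma 3.58.1, Python 3.11.15 (NumPy 2.4.6, pandas 2.3.3) and matplotlib 3.10.9.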

Additional observations from a re-analysis of the deposited data

How the results depend on the processing

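No member past the threshold in a comparison changed sign there under any alternative run. The counts that follow are of members, and the share of all genes past the threshold also changed with the setting. In the WT response that share was 3.79% in the main fit, 2.8% with only the groups compared and 6.68% without WT SRBC 1. A changed member count is thus not a result about the receptor genes alone. In the WT response the count of 10 members was 7 to 11 under the alternatives that kept all arrays (7 with only the groups compared, of which 6 were among the 10), 3 to 12 with 1 array left out, and 16 without both arrays that stood apart (WT SRBC 1 and Notch2-11cKO SRBC 3), where 2300 genes passed. In the Notch2-11cKO response the count of 1 was 2 with the mean of all probe sets, 3 among genes above the median level, 0 with quantile normalization, 4 without the trend, 0 to 4 with 1 array left out and 8 without both arrays. Between untreated genotypes the count of 8 was 4 to 9 with 1 array left out, and between genotypes after SRBC the count of 9 was 7 with only the groups compared (6 of them among the 9), 4 to 10 with 1 array left out, and 15 without both arrays. In the interaction the count of 0 was 1 without the trend (Il7r, adjusted p = 0.0492), 0 to 1 with 1 array left out, and 4 without both arrays (Il7r, Il1rap, Tnfrsf12a and Tnfrsf21, adjusted p = 0.00259, 0.0357, 0.0479 and 0.0495).

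Groups share replicate numbers in the labels, which state no pairing, so the numbers were not taken as pairs in the main fit. Same-numbered arrays deviated together with r over 0.1 in 4 of 13 pairs (-0.171 to 0.375). The highest were WT SRBC 1 with Notch2-11cKO SRBC 1 (0.375) and WT SRBC 3 with Notch2-11cKO SRBC 3 (0.324). In a group of 2 arrays the deviations from the group mean mirror each other, so the 13 pairs are not separate observations. Differently numbered arrays were not compared either, so these values cannot decide whether arrays were paired. With the replicate block 2 members passed in the Notch2-11cKO response (Il2ra and Tnfrsf4), and 10, 8, 10 and 0 in the WT response, between untreated genotypes, between genotypes after SRBC and in the interaction. Where an array left out leaves 1 in a group, that array is assumed to vary like the other groups. With 2 or 3 arrays a group, a member that did not pass is not shown to be unchanged.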
